A study of Chlamydomonas reinhardtii with 24 samples.

Results

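Polyadenylated RNA of the unicellular green alga Chlamydomonas reinhardtii was counted in 24 libraries, and the 16 libraries whose titles end in 1 or 2 were set against each other. Each of 8 groups held a library numbered 1 and a library numbered 2, so that 8 libraries numbered 1 were compared with 8 numbered 2 as 8 pairs. The groups were the mutant strains uvr8, co and hy5 and the strain CC5325 (WT), each with and without UV-B. Exposed cells received UV-B at 0.2 mW per square centimetre through a 311 nm filter for 1 h, and unexposed cells stood behind a 360 nm filter that blocks it. All groups received white light at 20 µmol photons per square metre and second. All had been grown on acetate in continuous light, washed in exponential phase and moved to minimal medium without acetate before the exposure. Each mutant was 1 strain named after the Chlamydomonas insertion library, with CC5325 given as its background. UVR8 is the UV-B photoreceptor, CO a CONSTANS-like regulator, and HY5, which the series also calls CrBlz3, a bZIP transcription factor.

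The labels give a replicate number and do not say whether libraries of a number share a culture, a day, an extraction or a sequencing run. If they do, each number stands for 1 such round, and the p-values below measure how alike the difference between numbers 1 and 2 was over the 8 groups. Culture density and growth rate were not analysed here, so the comparison is one of RNA levels.

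Chlamydomonas grows through a long G1 phase and then divides by rapid rounds of DNA synthesis and mitosis, for which cyclins, cyclin-dependent kinases and replication enzymes are made. Its flagella are resorbed before division and rebuilt afterwards by intraflagellar transport, in which kinesin carries protein trains along the flagellar microtubules. When CO2 is scarce the alga switches on a CO2-concentrating mechanism of bicarbonate channels, carbonic anhydrases and a Rubisco-filled pyrenoid, and on acetate it runs the glyoxylate cycle to build sugars. All of these programmes are known to follow the state of the culture and the medium.

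Libraries numbered 1 held 22519162 to 27686700 counts and those numbered 2 held 21449380 to 25749685. Of 13619 genes tested, 5958 (43.7%) passed an adjusted p of 0.05 by edgeR's quasi-likelihood test with Benjamini-Hochberg adjustment, 2793 (20.5%) higher and 3165 (23.2%) lower in number 1. The median of all log2 fold changes, number 1 over number 2, was -0.02. Differences of 2-fold or more were called for 247 genes (1.81%) that were higher and 1060 genes (7.78%) that were lower. Across genes, the log2 differences of 2 pairs correlated at 0.610 to 0.891 in the 12 combinations of the same light and at 0.264 to 0.606 in the other 16, as a description over genes that share libraries' scaling. Number 1 had fewer genes with a count (a mean of 14013 in number 1, against 14067 in number 2) and lower scaling factors (0.937 ± 0.129 in number 1, against 1.06 ± 0.108 in number 2, SD, n = 8 each) in 8 of 8 pairs, each with exact sign-flip permutation p = 0.0078125, the smallest that 8 pairs allow. The scaling factor of the WT library numbered 1 with UV-B, 0.670, was the lowest of all, and without that pair 5671 genes were called. The counts of called members without that pair were the same for the cell cycle, DNA replication, intraflagellar transport, tubulins and the CO2-concentrating mechanism; the ribosomal count is given below. Levels are given as CPM, the usual count relative to the scaled library total. As a check of the strains, CO lay at 6.84 to 9.99 CPM in the 6 co libraries, against 462 to 855 CPM in the other 18, and HY5 at 0.690 to 1.08 CPM in the 6 hy5 libraries, against 2.00 to 184 CPM elsewhere. UVR8 lay at 21.5 to 30.8 CPM in uvr8 libraries, against 26.3 to 48.7 CPM in the others, so its RNA level alone did not separate that strain.

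Genes were grouped into 17 lists of known function, with 165 members, of which 160 were matched by locus and 158 had enough counts to be tested. The gene names come from community locus identifiers and could not be checked against an annotation here. The counts of calls per list stand against 20.5% of all genes higher and 23.2% lower in number 1, and the list medians against -0.02. Members and lists were chosen with earlier results of these data known, so these shares are a description.

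**Figure D1:**
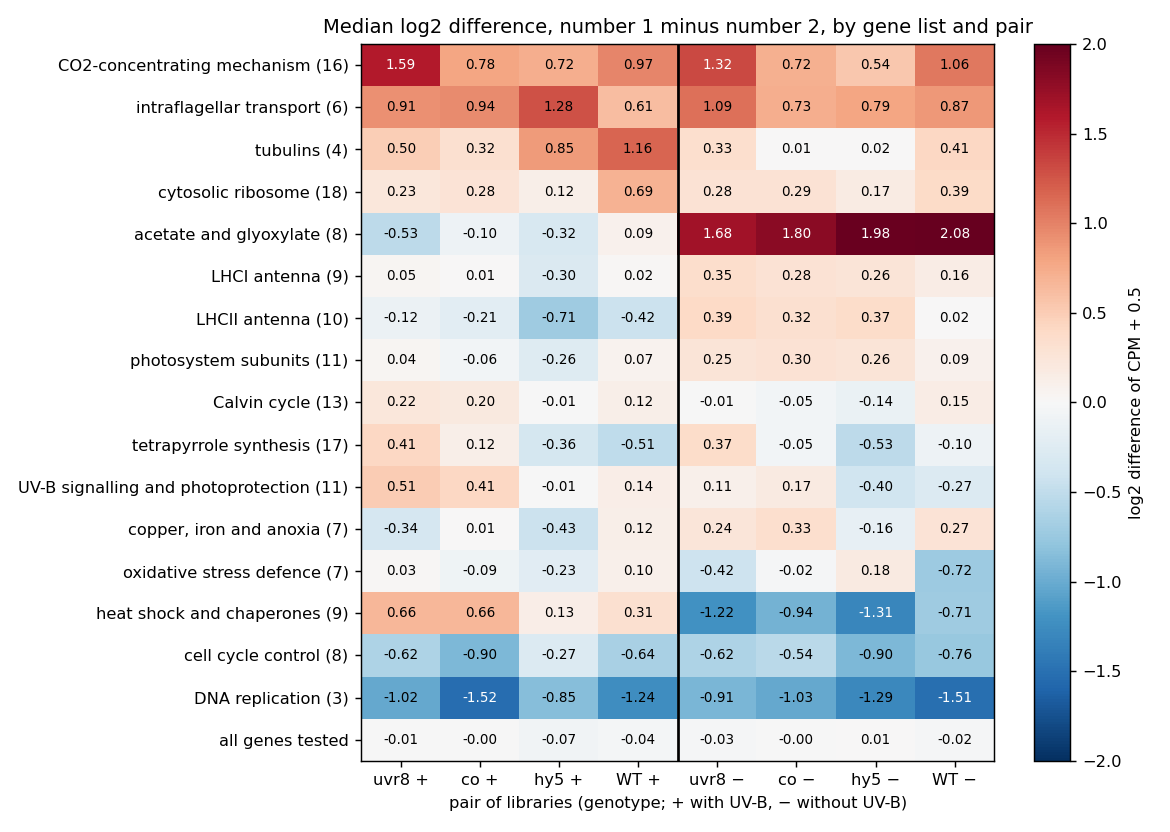
Median log2 difference of CPM plus 0.5, number 1 minus number 2, for 16 gene lists and for all genes tested (rows, with the number of genes tested) in each of the 8 pairs (columns, with UV-B on the left and without it on the right). The CO2-concentrating mechanism lay between 0.54 and 1.59 in all 8 pairs and DNA replication between -1.52 and -0.85, while the acetate list lay between -0.53 and 0.09 with UV-B and between 1.68 and 2.08 without it.

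Mitotic and S-phase genes that passed the test were lower in number 1 in every group. Of 8 tested members of the cell cycle list, 4 fell and 0 rose, with a list median of -0.68, and all 3 tested DNA replication genes fell, with a median of -1.03; of all genes tested 23.2% fell. CDKB1, the plant B-type cyclin-dependent kinase of mitosis, had lowest, median and highest levels of 3.75, 38.6 and 59.7 CPM in number 1, against 16.7, 95.8 and 157 CPM in number 2. Within each light WT lay below the mutants under both numbers, and the ranges overlapped, but number 1 was lower in 8 of 8 pairs (log2 fold change -1.55 ± 0.14, SE, adjusted p = 1.84e-05), a direction that 15.5% of all genes tested showed in 8 of 8 pairs. In WT with UV-B, CDKB1 lay at 3.75 CPM in number 1, against 16.7 CPM in number 2. In co with UV-B it lay at 40.2 CPM in number 1, against 157 CPM in number 2.

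The 2 cyclins moved with it. CYCA1, an A-type cyclin, fell by 1.45 on the log2 scale (SE 0.13, adjusted p = 2.01e-05) and lay at 1.76, 29.2 and 41.4 CPM (lowest, median, highest) in number 1, against 9.45, 76.0 and 112 CPM in number 2. CYCB1, the B-type cyclin, had a log2 fold change of -1.30 ± 0.11 (adjusted p = 1.84e-05). WEE1, the kinase that holds cyclin-dependent kinases inactive, fell as well (-1.35 ± 0.12, adjusted p = 1.88e-05). All 3 were lower in 8 of 8 pairs. The other members did not pass the test. CDKA1, the PSTAIRE-type kinase, had a log2 fold change of -0.06 ± 0.10, MAT3, the retinoblastoma-related size sensor, 0.17 ± 0.09, and the E2F and DP transcription factors E2F1 and DP1 had 0.05 ± 0.07 and 0.12 ± 0.09. The list thus split into 4 called genes, the cyclins, CDKB1 and WEE1, and 4 that were not called. With the pairing by group left out, CYCA1 and CYCB1 were no longer called.

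Replication enzymes were lower too. RIR2, the small subunit of ribonucleotide reductase, which makes deoxynucleotides, lay at 11.7, 75.8 and 99.8 CPM (lowest, median, highest) in number 1, against 54.4, 192 and 286 CPM in number 2. Its log2 fold change was -1.55 ± 0.12 (adjusted p = 1.41e-05), and every one of the 8 pairs was lower in number 1. The large subunit RIR1 had -0.995 ± 0.12 (adjusted p = 7.03e-05), and PCN1, the sliding clamp of DNA polymerase, -1.03 ± 0.13 (adjusted p = 0.000121). In neither list did a gene pass the test of whether the difference between numbers depended on UV-B, which 14.2% of all genes passed. With 8 and 3 genes tested, this does not show that the difference was alike in both lights. In bulk RNA, a smaller share of dividing cells and less of these transcripts per dividing cell cannot be told apart.

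**Figure D2:**
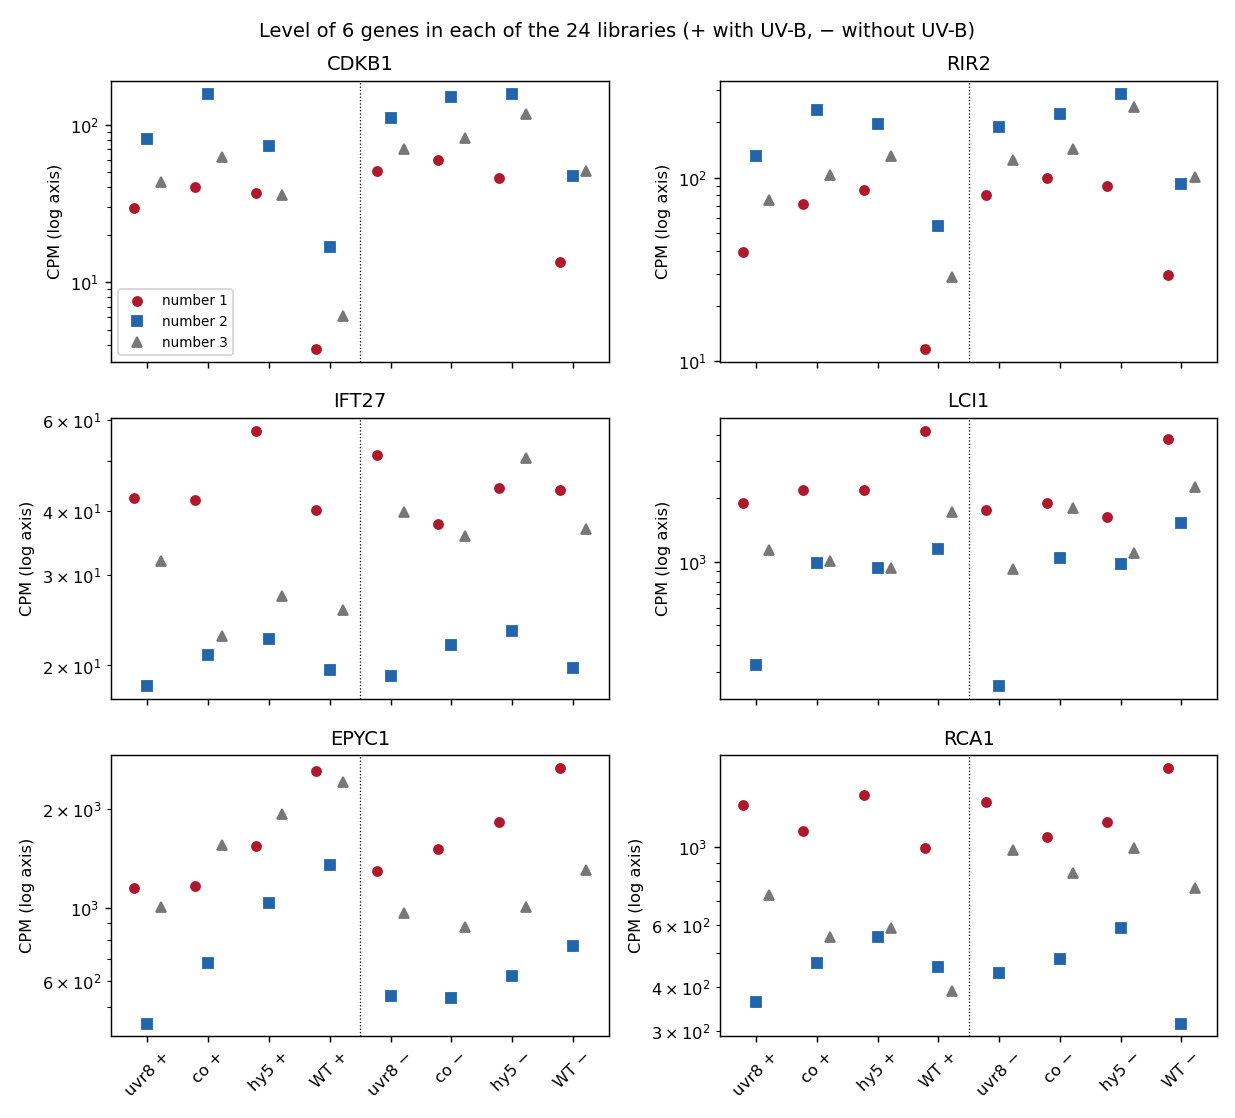
CPM (log axis) of 6 genes in each of the 24 libraries, with UV-B left of the dotted line and without it on the right, by number (circles 1, squares 2, triangles 3). CDKB1 and RIR2 lay lower in number 1 than in number 2 in all 8 groups, and IFT27, LCI1, EPYC1 and RCA1 lay higher.

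Flagellar assembly genes moved the opposite way. All 6 tested genes of intraflagellar transport rose in number 1, in 8 of 8 pairs each, with a median log2 fold change of 0.93; 20.5% of all genes rose, and 14.1% were higher in 8 of 8 pairs. IFT27, a small GTPase of the IFT-B train, had 37.6, 43.1 and 57.1 CPM (lowest, median, highest) in number 1, against 18.2, 20.3 and 23.4 CPM in number 2. The groups did not overlap: every library numbered 1 exceeded every library numbered 2, which held for 545 of all genes (4%), and the reverse for 269 (1.98%). The log2 fold change was 1.12 ± 0.09 (adjusted p = 1.41e-05). The IFT-B subunits IFT46, IFT88 and IFT172 had 1.02 ± 0.09, 0.96 ± 0.09 and 0.90 ± 0.10. The remaining members, IFT81 at 0.77 ± 0.09 and the anterograde kinesin-2 motor FLA10 at 0.76 ± 0.09, had the smallest changes of the list. Apart from IFT172, whose highest library numbered 2 (82.6 CPM) exceeded its lowest numbered 1 (68.9 CPM), none of the 6 overlapped between numbers.

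The 4 tubulin genes, which encode the building blocks of flagellar and cytoplasmic microtubules, rose less, with a median of 0.46. TUB2, a beta tubulin, lay at 840.0, 957 and 1332 CPM in number 1, against 389, 712 and 949.9 CPM in number 2 (lowest, median, highest; log2 fold change 0.56 ± 0.14, adjusted p = 0.00794). TUB1 had 0.40 ± 0.12, and the alpha tubulins TUA1 and TUA2 had 0.49 ± 0.13 and 0.42 ± 0.11; TUA1 was higher in 6 of 8 pairs and the others in 8 of 8. The list median ran from 0.32 to 1.16 in the pairs with UV-B and from 0.01 to 0.41 in those without. Whether the tubulin difference depended on UV-B was tested, and no member passed (smallest adjusted p = 0.0538, for TUA1). No tubulin was called without the WT pairs or in the 4 pairs without UV-B alone. The copies are near-identical in sequence, and reads of a pair of copies may be split.

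The CO2-concentrating mechanism rose nearly as a whole. Of 16 tested members 15 rose, against 20.5% of all genes, each in 8 of 8 pairs, with a list median of 1.04. For 3 of the 15 the difference also passed the test of dependence on UV-B, against 14.2% of all genes. The members are given here along the path of inorganic carbon. At the plasma membrane, LCI1, an inorganic carbon channel, lay at 1620.3, 2047 and 4172 CPM (lowest, median, highest) in number 1, against 255, 977 and 1524 CPM in number 2. The groups did not overlap, and the lowest values numbered 2 were the uvr8 libraries, at 323 CPM with and 255 CPM without UV-B. Its log2 fold change was 1.57 ± 0.23 (adjusted p = 0.000281). HLA3, the ABC transporter for bicarbonate, did not overlap either, with 988, 1326 and 2013 CPM in number 1 and 337, 561 and 962 CPM in number 2 (1.32 ± 0.17, adjusted p = 0.000137).

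At the chloroplast envelope, the bicarbonate channel LCIA had a log2 fold change of 0.89 ± 0.15 (adjusted p = 0.000693). The low-CO2-inducible carriers CCP1 and CCP2, which are not assigned to a membrane here, had 1.28 ± 0.19 and 0.49 ± 0.11. On the thylakoid, the bestrophin-like channels BST1, BST2 and BST3, which pass bicarbonate towards the lumen, had 1.14 ± 0.20, 0.71 ± 0.12 and 0.91 ± 0.11. BST2 and BST3 did not overlap between numbers; BST3 lay at 806, 963 and 1430.5 CPM in number 1 and at 472, 544 and 629 CPM in number 2. CAH3, the carbonic anhydrase of the lumen, rose by 0.86 (SE 0.13).

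Pyrenoid genes rose too. EPYC1, the linker that gathers Rubisco into the pyrenoid, had 1154, 1527 and 2669 CPM (lowest, median, highest) in number 1, against 444, 649 and 1348 CPM in number 2 (1.24 ± 0.13, adjusted p = 4.52e-05). LCIB and LCIC, which recapture CO2 that leaks from the pyrenoid, had 0.93 ± 0.10 and 1.18 ± 0.13, and neither overlapped between numbers. LCIC lay at 2860.0, 3452 and 5733 CPM in number 1 and 1181, 1659 and 2051 CPM in number 2. CAH1, the periplasmic carbonic anhydrase, rose by 0.73 (SE 0.10, adjusted p = 0.000242). The one member that did not pass was CIA5, the master regulator of the mechanism, with -0.21 ± 0.19 (adjusted p = 0.384) and a log2 difference of -1.71 in the WT pair with UV-B; its level lay at 17.7, 44.5 and 67.4 CPM in number 1 and 37.8, 46.8 and 65.0 CPM in number 2.

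The mitochondrial carbonic anhydrases CAH4 and CAH5 rose more with UV-B than without. CAH5 lay in number 1 with UV-B at 1567, 1672, 1282 and 3715 CPM in uvr8, co, hy5 and WT, against 181, 742, 349.7 and 369.9 CPM in number 2. Without UV-B the values were 1531, 1481, 1175 and 2867 CPM in number 1, against 445, 1157, 863 and 1675 CPM in number 2. Every number 1 library exceeded its partner, and the log2 difference between numbers was larger with UV-B than without by 1.55 ± 0.47 (adjusted p = 0.0493), with 1.44 ± 0.38 (adjusted p = 0.0305) for CAH4 and 0.80 ± 0.23 (adjusted p = 0.0413) for HLA3. CAH4 and CAH5 are near-identical copies, so their counts may be split between them. By genotype, the list median was 1.48 in uvr8, 0.78 in co, 0.68 in hy5 and 1.21 in WT. These differences between genotypes were tested gene by gene, and none passed. With a number by light term added to that quasi-likelihood test, none passed either. The unadjusted p of the list then ran from 0.000165 for LCI1 (adjusted p = 0.211) to 0.666 for EPYC1. With 2 pairs per genotype, this does not show that the genotypes were alike.

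RCA1, Rubisco activase, which frees the active site of Rubisco, stood apart in the Calvin cycle list. It lay at 992, 1248 and 1678 CPM (lowest, median, highest) in number 1, against 314, 462 and 586 CPM in number 2, without overlap (1.48 ± 0.15, adjusted p = 3.12e-05). Of the 13 tested members of that list, 3 rose and 1 fell, with a median of 0.04, a share near that of all genes (20.5% higher, 23.2% lower). With library totals alone 2 were higher and 3 lower, and FBA3 was no longer called. The others called were RBCS2, the abundant Rubisco small subunit (0.43 ± 0.10, higher in 7 of 8 pairs), the aldolase FBA3 (0.35 ± 0.09) and the phosphoglycerate kinase PGK1 (-0.32 ± 0.11); the PGK1 call was lost when any of 5 of the 8 pairs was left out. The 9 members not called ranged in log2 fold change from -0.26 to 0.68.

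Ribosomal protein genes rose by a small amount shared by most of the list. Of 18 tested genes of the cytosolic ribosome 17 rose, against 20.5% of all genes, 15 of the 18 were higher in 8 of 8 pairs, and the median log2 fold change was 0.30. RPS3, a small subunit protein, lay at 3585, 4509.8 and 8166 CPM (lowest, median, highest) in number 1, against 2877, 3663 and 4760.0 CPM in number 2 (0.36 ± 0.08, adjusted p = 0.00351). RPS23, also of the small subunit, had 0.32 ± 0.07 and the large subunit protein RPL9 0.29 ± 0.07. The WT pair with UV-B had the largest list median, 0.69, and the hy5 pair with UV-B the smallest, 0.12; without the WT pair with UV-B 15 of the 18 were called. With library totals alone, without the scaling factors, the median of all genes tested moved to -0.21, the list median was 0.11 and 2 of the 18 were called, while relative to the median of all genes it was 0.32. On the same scale the CO2-concentrating mechanism kept 15 calls, intraflagellar transport 6 and DNA replication 3, and 1 of 4 tubulins was called. With the pairing by group left out, 0 ribosomal genes were called.

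No antenna gene passed edgeR's quasi-likelihood test over both lights. Of 10 tested genes of the photosystem II antenna and 9 of the photosystem I antenna, 0 were called in either direction, with medians of -0.06 and 0.10. In each list 1 gene lay under an unadjusted p of 0.05 and DESeq2 called 1 higher, LHCB5 and LHCA2; with library totals alone 2 of the photosystem II antenna were called lower. Their dependence on UV-B is given further on. LHCB5, the minor antenna protein CP26, had the smallest adjusted p of its list, at 0.0716, with 0.16 ± 0.07. Of 11 photosystem subunits 3 rose, against 20.5% of all genes, all of photosystem I: PSAN (0.27 ± 0.07), PSAF, the docking site of plastocyanin (0.20 ± 0.07), and PSAD (0.19 ± 0.07). PSAF and PSAD lost their calls when any of the 4 pairs of WT and uvr8 was left out, and with library totals alone all 3 lost theirs, PSAD had a log2 fold change of -0.00491, and 0 subunits were called higher and 2 lower. Of 17 tetrapyrrole synthesis genes 2 fell, against 23.2% of all genes, the coproporphyrinogen oxidase CPX1 (-0.67 ± 0.22) and the protoporphyrinogen oxidase PPX1 (-0.42 ± 0.15), and each call was lost when any of 5 of the 8 pairs was left out. By genotype, the median of this list was 0.37 in uvr8, 0.08 in co, -0.44 in hy5 and -0.30 in WT. In uvr8, 16 of the 17 genes were higher in number 1 with UV-B and 15 without. The counts were 0 and 5 in hy5, and 1 and 7 in WT. No member passed the test of a difference between genotypes given below.

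For another set of genes, the difference between numbers depended on UV-B. The number effect with UV-B minus that without passed the test for 1935 of 13619 genes (14.2%), 916 positive (6.73%) and 1019 negative (7.48%). Among list members 20 were positive and 16 negative of 158. The count was 939 without the co pair lacking UV-B, 1038 without the co pair with UV-B, 1066 without the hy5 pair lacking UV-B and 1206 without the uvr8 pair with UV-B. The lists that held most of them were acetate and glyoxylate (7 of 8, all negative), heat shock (5 of 9, all positive), the photosystem II antenna (5 of 10, all negative) and oxidative stress defence (4 positive and 1 negative of 7).

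**Figure D3:**
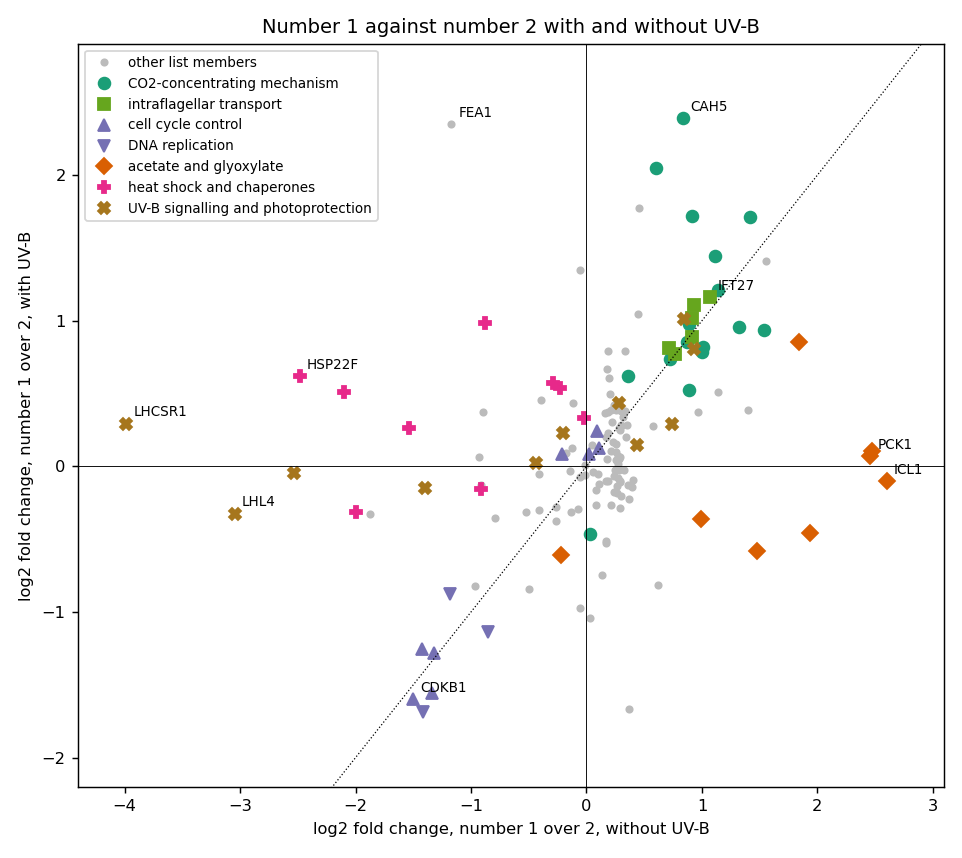
Log2 fold change, number 1 over number 2, with UV-B (vertical axis) against that without UV-B (horizontal axis) for each of the 158 tested list members, coloured by list. Members of the CO2-concentrating mechanism, intraflagellar transport, the cell cycle and DNA replication lie mostly near the dotted line of equal change, most acetate genes lie to the right of it, and LHCSR1 and LHL4 lie far to the left.

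Acetate genes were high in number 1 without UV-B. ICL1, isocitrate lyase, the entry enzyme of the glyoxylate cycle, lay at 1083, 2697, 3437 and 1558 CPM in uvr8, co, hy5 and WT numbered 1 without UV-B, against 173, 459.8, 523 and 282 CPM in number 2. With UV-B the values were 1116, 1757, 1119 and 1084 CPM in number 1, against 1676, 1798, 1433 and 756 CPM in number 2. Without UV-B number 1 was higher in all 4 strains, while with UV-B it was higher in WT and lower in uvr8, co and hy5. The fold changes on the log2 scale were -0.10 with UV-B and 2.60 without, a difference of -2.70 ± 0.22 (adjusted p = 0.000351). Put the other way, ICL1 in number 2 was higher with UV-B than without in all 4 strains, and in number 1 it was lower with UV-B than without in co, hy5 and WT.

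MAS1, malate synthase, the other enzyme proper to the glyoxylate cycle, had 0.11 with UV-B and 2.47 without (difference -2.36 ± 0.24, adjusted p = 0.000654). PCK1, phosphoenolpyruvate carboxykinase, which opens the path to sugars, had 0.07 and 2.46 (difference -2.39 ± 0.23, adjusted p = 0.000618). The acetyl-CoA synthetases ACS3 and ACS2, which take up acetate, and the citrate synthase CIS2 had differences of -2.39 ± 0.17, -1.35 ± 0.15 and -2.06 ± 0.22. MDH2, a malate dehydrogenase, rose under both lights, by 0.85 with UV-B and 1.84 without, and in 8 of 8 pairs. Over both lights 4 of the 8 members rose (ICL1, MAS1, PCK1 and MDH2), against 20.5% of all genes, and ACS1 fell (-0.41 ± 0.12). The ICL1 call over both lights was lost when any of the 4 pairs lacking UV-B was left out, and the ACS1 call without the co pair with UV-B. Those of MAS1 and PCK1 were lost without the WT or the uvr8 pair lacking UV-B, and that of PCK1 also without the co pair lacking it. The medians of the list, -0.23 with UV-B and 1.89 without, were of opposite sign. The labels put the wash into minimal medium before the exposure in all groups, and the time spent in it is given only as at least 1 h, so its part in the result was not tested.

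Of the 10 antenna genes of photosystem II, 5 passed the test of dependence on UV-B, against 14.2% of all genes, all with a negative difference. LHCBM1, a major antenna protein, lay with UV-B at 6626, 6425, 4837 and 5775 CPM in uvr8, co, hy5 and WT numbered 1, against 9102, 8407, 8555 and 8152 CPM in number 2. Without UV-B it lay at 7009.5, 7664, 7556 and 5979.5 CPM in number 1, against 6476, 6704, 6051 and 5925 CPM in number 2. Number 1 was thus lower in all 4 strains with UV-B and higher in all 4 without, with a difference of -0.69 ± 0.14 (adjusted p = 0.0115). LHCBM4 had -2.03 ± 0.59 (adjusted p = 0.0414). The medians of the 10 genes were -0.37 with UV-B and 0.25 without, and the copies of this family may share reads.

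**Figure D4:**
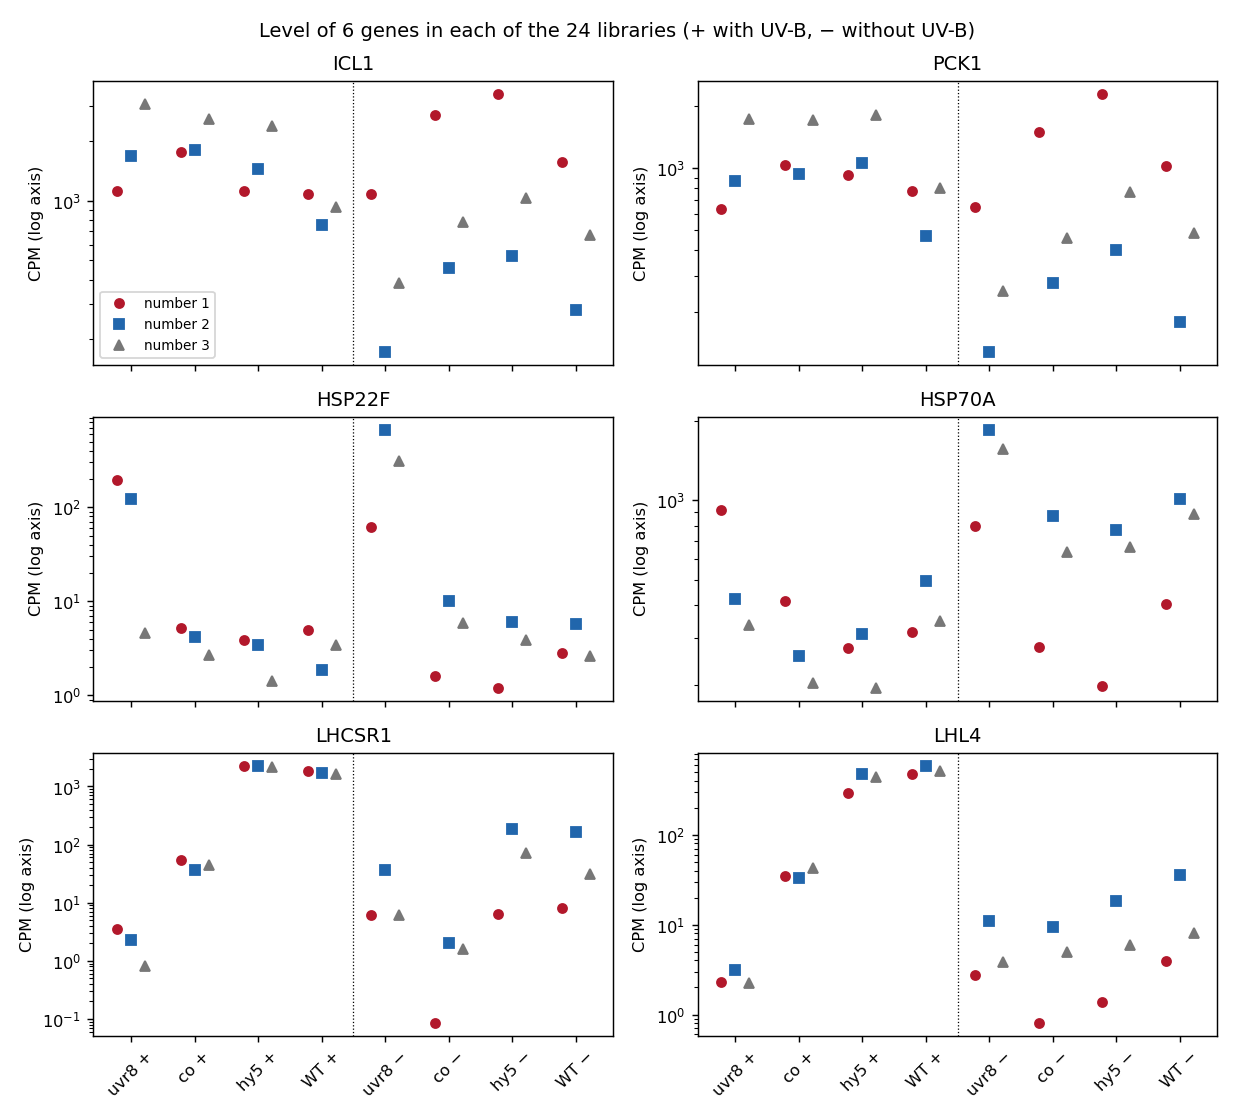
CPM (log axis) of 6 genes in each of the 24 libraries, with UV-B left of the dotted line and without it on the right, by number (circles 1, squares 2, triangles 3). Without UV-B, number 1 lay above number 2 for ICL1 and PCK1 and below it for HSP22F, HSP70A, LHCSR1 and LHL4 in all 4 strains.

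Heat shock genes ran the opposite way. Without UV-B, HSP70A, the cytosolic HSP70 chaperone, lay at 797, 279, 199 and 405 CPM in uvr8, co, hy5 and WT numbered 1, against 1852, 876, 775 and 1016 CPM in number 2. With UV-B it lay at 923, 416, 276 and 317 CPM in number 1, against 422, 258, 313 and 494 CPM in number 2. All 4 strains were lower in number 1 without UV-B, while with UV-B uvr8 and co were higher and hy5 and WT lower. The log2 fold changes were 0.26 with UV-B and -1.53 without (difference 1.80 ± 0.35, adjusted p = 0.00887).

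HSP90A, the cytosolic HSP90, had opposite signs: 0.98 with UV-B and -0.88 without (difference 1.87 ± 0.24, adjusted p = 0.00176). HSP22F, a plastid small heat shock protein, lay without UV-B at 61.2, 1.59, 1.21 and 2.80 CPM in number 1, against 669, 10.01, 5.98 and 5.69 CPM in number 2, and the uvr8 libraries were far above the other strains under both numbers. Its difference was 3.103 ± 0.45 (adjusted p = 0.00296), and that of its near-identical neighbour HSP22E, which may share its reads, 2.60 ± 0.40. Over both lights 2 of 9 members fell, a share near the 23.2% of all genes: VIPP2, a thylakoid membrane stress protein (-1.09 ± 0.36, lower in 8 of 8 pairs), and the plastid HSP90C (-0.54 ± 0.19). Both calls were lost without the WT or the co pair lacking UV-B, and that of HSP90C also when any of 4 other pairs was left out. The list medians were 0.51 with UV-B and -0.92 without.

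Among genes of the UV-B response, the difference between numbers depended on UV-B for LHCSR1, LHL4 and PSBS2, and their fold changes without UV-B were negative. LHCSR1, a protein of energy-dependent quenching that dissipates excess light and is known to be made under UV-B, lay without UV-B at 6.20, 0.0838, 6.38 and 8.01 CPM in uvr8, co, hy5 and WT numbered 1, against 36.6, 2.01, 186 and 168 CPM in number 2. With UV-B it lay at 3.60, 53.4, 2250.5 and 1809.9 CPM in number 1, against 2.29, 36.0, 2294 and 1721 CPM in number 2. Each unexposed strain was lower in number 1, and with UV-B the pairs of hy5 and WT were close. The log2 fold changes were 0.29 with UV-B and -3.98 without, a difference of 4.28 ± 0.45 (adjusted p = 0.000865).

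LHL4, the antenna-like protein named in the series title as photoreceptor-induced, had the same form. Without UV-B it lay at 2.77, 0.796, 1.38 and 3.98 CPM in number 1, against 10.8, 9.33, 18.4 and 35.6 CPM in number 2, again lower in number 1 in all 4 strains. With UV-B it lay at 2.29, 34.9, 290.01 and 479 CPM in number 1, against 3.16, 32.7, 476 and 589 CPM in number 2. The difference between lights was 2.72 ± 0.34 (adjusted p = 0.00173). PSBS2, another quenching protein, whose copy PSBS1 may share its reads, had a difference of 2.48 ± 0.55 (adjusted p = 0.015), from levels of at most 3.98 CPM without UV-B. By construction these differences are also the log2 fold change with UV-B over without within number 1, minus that within number 2.

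Other members of the UV-B list passed the test over both lights. LHCSR3A and LHCSR3B, the quenching proteins made in high light and low CO2, rose by 0.93 (SE 0.23, adjusted p = 0.00668) and 0.87 (SE 0.20), and as near-identical copies they may share reads. LHCSR3A lay at 142, 374 and 1555 CPM (lowest, median, highest) in number 1, against 78.0, 140.4 and 897 CPM in number 2. The photoreceptor gene UVR8 rose in 8 of 8 pairs (0.36 ± 0.08, adjusted p = 0.0044). CO (0.29 ± 0.09) and HY5 (0.50 ± 0.18) rose in 7 of 8 pairs. The CO call was lost without the 2 uvr8 pairs, and the HY5 call when any of 5 of the 8 pairs was left out. In the pairs of 1 light alone, HY5 was called in neither, CO not with UV-B and UVR8 not without it. With library totals alone all 3 of these calls were lost. COP1 and SPA1, subunits of the ubiquitin ligase that UVR8 binds, did not pass, with -0.20 ± 0.12 and 0.02 ± 0.11. Of the 11 members tested 5 rose and 1 fell (LHL4), with a median of 0.02, against 20.5% higher and 23.2% lower of all genes. With library totals alone 2 were higher and 2 lower, and with the pairing by group left out 0 were called.

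Among stress and metal genes, VTC2, an enzyme of ascorbate synthesis, resembled LHL4. Without UV-B it lay at 6.86, 3.101, 4.18 and 3.54 CPM in number 1, against 23.1, 13.4, 13.1 and 14.7 CPM in number 2; its fold changes were -0.33 with UV-B and -1.88 without (difference 1.55 ± 0.21, adjusted p = 0.00219). CAT1, catalase, was higher in number 1 in 8 of 8 pairs (0.90 ± 0.20), by 0.39 with UV-B and 1.40 without. The iron superoxide dismutase FSD1 rose (0.75 ± 0.13) and the glutathione peroxidase GPX5 fell (-0.52 ± 0.15). Without UV-B, GPX5 had means of 75.9 CPM in number 1 and 142 CPM in number 2, and with it 318 and 343 CPM. Its call was lost without the co pairs and in the pairs with UV-B alone. The 4 calls of this list made 2 rises and 2 falls in 7 members, against 20.5% and 23.2% of all genes. Of 7 members of the copper, iron and anoxia list, CYC6, the cytochrome that stands in for plastocyanin without copper (1.09 ± 0.26), and the hydrogenase HYDA2 (0.83 ± 0.16) rose. With UV-B, CYC6 had means of 9.66 CPM in number 1 and 3.19 CPM in number 2. Without UV-B they were 9.57 and 7.80 CPM, and in those pairs alone CYC6 was not called. The iron uptake genes FOX1, a multicopper ferroxidase (-0.90 ± 0.13), and FTR1, the iron permease (-0.57 ± 0.11), fell, so that 2 of 7 members rose and 2 fell, against the same 20.5% and 23.2%. In the pairs with UV-B alone the calls of HYDA2 and FTR1 were lost. FOX1 lay at 11.9, 38.2 and 67.7 CPM (lowest, median, highest) in number 1, against 38.7, 62.9 and 119 CPM in number 2, lower in 8 of 8 pairs. NII1, nitrite reductase, was the only nitrogen gene with enough counts to be tested and did not pass (0.70 ± 0.34, adjusted p = 0.118).

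Of the 158 tested members of all 17 lists, 61 rose, 18 fell and 79 did not pass; of all genes 20.5% rose and 23.2% fell. For 12 members every library numbered 1 lay above every library numbered 2, and for 0 below, against 4% and 1.98% of all genes. The 12 were LCI1, HLA3, LCIB, LCIC, BST2 and BST3 of the CO2-concentrating mechanism, IFT27, IFT46, IFT81, IFT88 and FLA10 of intraflagellar transport, and RCA1. As members were chosen with earlier results of these data known, these shares do not show that list members differ from all genes. The genes with the largest changes under the naming rule carried no name in the sources used here. Cre16.g661750 had a log2 fold change of 2.98 ± 0.16 and Cre16.g661850 2.77 ± 0.13; Cre18.g748347 had -3.42 ± 0.62 and Cre09.g398400 -3.41 ± 0.43. Cre16.g661750 lay at 18.1, 26.9, 25.6 and 25.4 CPM with UV-B in uvr8, co, hy5 and WT numbered 1, against 1.60, 3.60, 4.39 and 2.18 CPM in number 2. Cre18.g748347 and Cre09.g398400 lay near the floor in number 1, with means of 0.629 and 0.450 CPM, against 7.80 and 5.32 CPM in number 2. In uvr8 numbered 1 both lay at 0 CPM, against 0.0400 CPM each in number 2 without UV-B. Their log2 fold changes were -5.18 and -4.44 with UV-B, and -1.74 and -2.19 without.

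Whether the difference between numbers varied with genotype was tested with 3 degrees of freedom over the 8 pairs. Of 13619 genes 0 passed (0%) by edgeR's quasi-likelihood test, with 252 at an unadjusted p under 0.05 and 11 called by DESeq2. With the light term added, 0 passed and 1204 lay under an unadjusted p of 0.05. With 2 pairs per genotype, this does not show that the genotypes were alike. The medians by genotype had the same sign in uvr8, co, hy5 and WT for the cell cycle (-0.65, -0.72, -0.61 and -0.76), DNA replication (-0.90, -1.26, -1.002 and -1.29), intraflagellar transport (1.01, 0.86, 1.04 and 0.74) and the ribosome (0.24, 0.30, 0.16 and 0.54). Other lists changed sign between genotypes, among them tetrapyrrole synthesis (0.37, 0.08, -0.44 and -0.30).

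Over both lights, the list medians placed the libraries numbered 3 between the other numbers for the cell cycle, DNA replication and intraflagellar transport. They did not for heat shock (0.22 for 1 over 3 and -0.18 for 3 over 2) or the photosystem II antenna (-0.14 and 0.13). Within 1 light the order could differ. With UV-B, mean ICL1 was 1269, 1416 and 2232 CPM in numbers 1, 2 and 3. In the fit over 24 libraries, in which number 1 against 2 gave 6769 calls (49.7%), 3216 of 13613 genes (23.6%) were called in number 1 against 3, of which 1508 (11.1%) were higher and 1708 (12.5%) lower in number 1. Number 3 against 2 gave 3080 calls (22.6%), 1509 (11.1%) higher and 1571 (11.5%) lower in number 3. The comparisons share libraries, so their values are given side by side. All 4 called cell cycle genes and all 3 replication genes were lower in 1 than in 3 and lower in 3 than in 2. MAT3, which was not called between 1 and 2, was higher in 3 than in 2 (0.31, adjusted p = 0.00559). CDKB1 had -0.76 for 1 over 3 and -0.79 for 3 over 2, and RIR2 -0.96 and -0.59. Intraflagellar transport had 5 of 6 genes higher in 1 than in 3 and 6 of 6 higher in 3 than in 2. Mean CDKB1 in numbers 1, 2 and 3 was 27.6, 82.0 and 37.0 CPM with UV-B, and 42.4, 116 and 80.2 CPM without. Mean IFT27 was 45.3, 20.3 and 26.9 CPM with UV-B, and 44.3, 21.0 and 40.7 CPM without. Number 3 thus lay between in each light, but not at a fixed place. With UV-B it was nearer to number 1 for CDKB1 and to number 2 for IFT27, and without UV-B IFT27 was nearer to number 1.

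The CO2-concentrating mechanism did not sit midway as a whole. Of its 16 members 13 were higher in 1 than in 3, and 6 were higher and 1 lower in 3 than in 2, with medians of 0.72 and 0.29. BST1 had 1.11 for 1 over 3 and -0.00 for 3 over 2, LCIA 0.89 and -0.03, and HLA3 1.12 and 0.22: in these channels and transporters the value of number 3 was near that of number 2. Over both lights EPYC1 ran the opposite way, with 0.35 (adjusted p = 0.0685) and 0.90 (adjusted p = 0.000402). Its means in numbers 1, 2 and 3 were 1619, 877 and 1730 CPM with UV-B, and 1828, 614 and 1037 CPM without. For EPYC1 number 3 thus lay above both with UV-B and between them without. CCP2 was lower in 3 than in 2 (-0.51). For FOX1 number 3 was near number 1, with -0.06 for 1 over 3 and -0.84 for 3 over 2. HYDA2 had 0.07 and 0.77 over both lights. Its means in numbers 1, 2 and 3 were 125, 86.0 and 165 CPM with UV-B, and 111, 50.3 and 76.7 CPM without. For HYDA2 number 3 thus lay above both with UV-B and between them without. Ribosomal genes had 15 of 18 higher in 1 than in 3 and 0 called in 3 against 2.

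**Figure D5:**
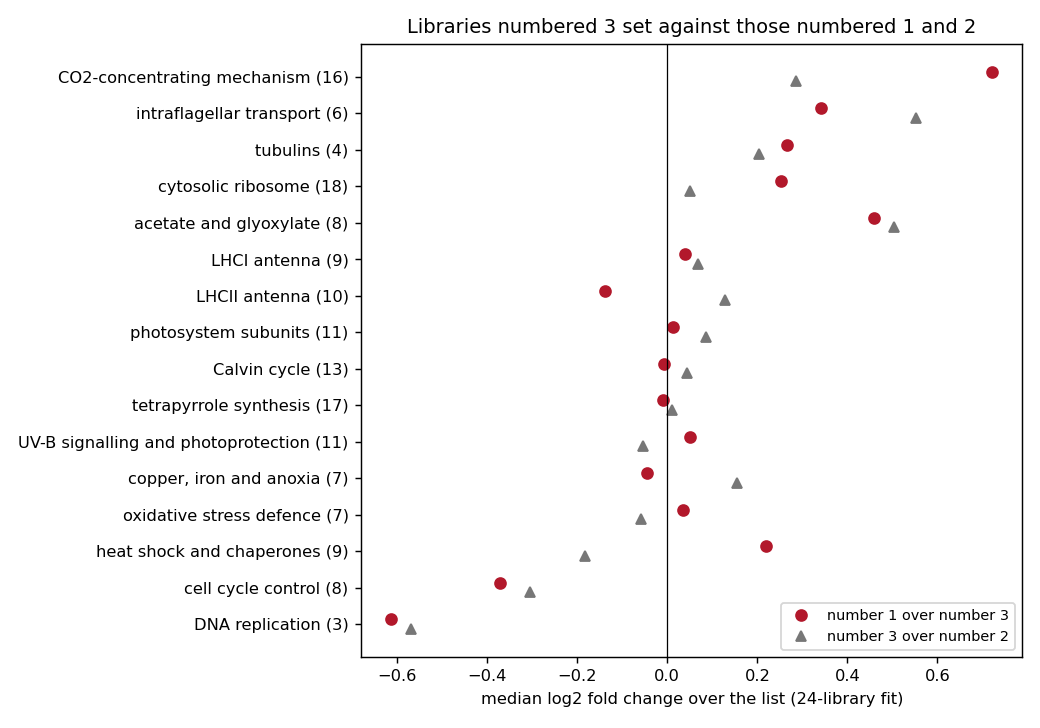
Median log2 fold change over each list in the fit of all 24 libraries, for number 1 over number 3 (circles) and number 3 over number 2 (triangles), with the number of genes tested per list. For the cell cycle both medians were negative (-0.37 and -0.31) and for intraflagellar transport both were positive (0.34 and 0.55), so that number 3 lay between numbers 1 and 2, while the ribosome had 0.25 and 0.05.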

How the data were processed

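The values in the table the authors deposited are raw counts: whole numbers of reads per gene with no normalization, for 14621 genes in 24 libraries. The submitters' processing notes name STAR 2.7.10b and HTSeq 0.11.3, along with bcl2fastq 2.20.0 and edgeR 3.42.4, without roles. How strand and reads with several matches were treated, and the genome build, were not stated in any source used. Groups and numbers came from the sample titles. Genes below edgeR's filterByExpr limits (count 10, total 15) were dropped, and 13619 remained. After TMM scaling, counts were tested in edgeR 4.0.16 by the quasi-likelihood F test (limma 3.58.1, R 4.3.3) with group and number as factors over 16 libraries (7 residual degrees of freedom), Benjamini-Hochberg adjustment over all genes tested and a threshold of 0.05. A fold change is number 1 over number 2, and its SE was taken as its absolute value over the root of F. Pair differences used log2 of CPM plus 0.5. On simulated counts for 13619 genes, the comparison of numbers 1 and 2 recovered 89% of 2-fold and 99% of 4-fold changes, with 15 of 203 calls false. Each fold was put into 100 genes, drawn only from those with higher counts, and no change depended on light. Recovery for genes near the floor, or with as many changed genes as these data hold, was thus not tested.

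The numbers are paired by group, since each group holds 1 library of each number. Members, lists and tests were chosen with earlier results of these data known. Named genes were all members of the cell cycle, replication and tubulin lists, the 4 members of every other list with the smallest adjusted p, the mutated genes and the called genes with the largest changes (mean CPM at least 1, same sign in 8 of 8 pairs). A further 26 were named after their values were seen: ICL1, ACS2, ACS3, CIS2, HSP90A, HSP22F, LHCSR1, PSBS1, PSBS2, COP1, SPA1, LHCBM1, CAH1, CAH3, CAH4, CAH5, HLA3, LCI1, LCIA, CCP1, CCP2, CIA5, BST1, BST2, IFT81 and FLA10. Some genes that the rule picks are not reported here. Gene names rest on locus identifiers: 13245 loci occur in the RefSeq gene table of assembly v5.5, which holds 0 symbols. The checks of names by protein size and of promoter motifs were not run, as no genome or protein table was used here. Alternatives were another scaling, no filter, DESeq2 1.42.0, no pairing, all 24 libraries, pairs or genotypes left out and each light alone.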

Additional observations from a re-analysis of the deposited data

Results flagged for a closer look

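Among 100 genes chosen for naming, the 8 pair differences (log2 of CPM plus 0.5, number 1 minus number 2) were searched for a pair that stood apart by Dixon's criterion (0.526 for 8 values), which chance meets in about 1 of 20 cases. There were 3: CIA5 at -1.71 in the WT pair with UV-B, against -0.453 to 0.178 in the others, RPS3 at 0.779 in the same pair, against 0.168 to 0.428, and E2F1 at 0.325 in the hy5 pair with UV-B, against -0.0999 to 0.0849. The WT library numbered 1 with UV-B also had the lowest scaling factor, 0.670, whose part in the first 2 values was not tested.

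The difference between numbers changed with UV-B for 27 of the 100 (adjusted p under 0.05, edgeR's quasi-likelihood test of the interaction), against 14.2% of all genes. Of the 27, 12 are among the 26 genes named after their values were seen, so the share is no result about the chosen genes. The values that follow are the log2 fold change with UV-B minus that without. They were negative for the acetate genes ACS2 (-1.35), ACS3 (-2.39), CIS2 (-2.06), ICL1 (-2.7), MAS1 (-2.36), MDH2 (-0.986) and PCK1 (-2.39), for the antenna genes LHCBM1 (-0.694) and LHCBM4 (-2.03), for CAT1 (-1.02) and for CRD1 (-0.918), a subunit of the cyclase of chlorophyll synthesis. The unnamed Cre09.g398400 (-2.25) and Cre18.g748347 (-3.44) were negative too. They were positive for the heat shock genes HSP22E (2.6), HSP22F (3.1), HSP70A (1.8) and HSP90A (1.87), for LHCSR1 (4.28), LHL4 (2.72) and PSBS2 (2.48), and for VTC2 (1.55), GPX5 (0.784) and FSD1 (0.598). The carbon genes CAH4 (1.44), CAH5 (1.55) and HLA3 (0.804) and the cytochrome gene CYC6 (1.33) were positive as well.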

How the results depend on the processing

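The count of genes called between numbers 1 and 2, 5958, was 5950 with RLE scaling, 5907 without a filter, 6400 by DESeq2 and 6769 with all 24 libraries. Leaving out pairs or genotypes gave 4608 to 5700, and each light alone 5327 (with UV-B) and 5878 (without). Without the pairing by group (no replicate block) it was 3870, with 2 cell cycle genes lower and 0 ribosomal genes higher. Among the 7 counts of calls tried there, DNA replication, intraflagellar transport and the CO2-concentrating mechanism stayed within 1.5 times of their value under every alternative. The tubulin count was 0 without WT and in the pairs without UV-B alone, 1 with library totals alone, and 0 to 4 over the cases that left out pairs or genotypes; the ribosomal count was 3 in the pairs with UV-B alone, 2 with library totals alone and 13 to 17 with pairs or genotypes left out. The cause of these changes was not tested, apart from library totals, which moved the median of all genes to -0.21 and the share of calls that were higher to 22.8%, against 46.9%. That setting, and a number by light term added to the test (7209 calls), were chosen after seeing the data. The genotype difference was called for 11 genes by DESeq2 and 0 otherwise. The light difference, 1935, was 939 to 2442 with a pair left out. Reversals were HSP90A (-0.88) in the pairs without UV-B alone, ACS2 (-0.35), ACS3 (-0.45), CIS2 (-0.57), HSP22E (0.51), HSP22F (0.63) and ICL1 (-0.10) in the pairs with UV-B alone, and PSAD (-0.00491) with library totals. At this depth the listed nitrate genes NIT1 and NRT2A fell below the filter and could not be tested.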
